A study of Mus musculus with 2 samples.

Results

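Melanocyte pigment genes were read in back skin from female NC/Nga mice, which are inbred and readily develop dermatitis. The set held 10 genes picked by name as enzymes, melanosome proteins and lineage regulators of pigment cells, out of 22180 genes with a gene symbol of their own on the array. Of the 10, 9 were measured by a probe that carries 1 symbol: Tyr, Tyrp1, Dct, Pmel, Mlana, Oca2, Slc45a2, Mitf and Sox10, with 1 probe each. Slc24a5 lay only on probes that also list its neighbour Myef2.

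Both groups were given an ointment of Dermatophagoides farinae (house dust mite) body extract 2 times a week for 6 weeks, so the control is inflamed and not healthy skin. The ZAG group also had recombinant ZAG (zinc-alpha-2-glycoprotein) put on the skin 2 times a week for 6 weeks, at 1 µg/mL per the series' design text. Mice were 6 weeks old at entry and 13 weeks old at sampling, with no engineered allele named. The design text counts 3 mice a group, but the values come as 1 column (1 array) for control and 1 for ZAG, and whether a column is 1 mouse, a pool or a mean is not stated in the sources used here. No difference below therefore has a replicate error, a standard error or a p-value, and each describes these 2 arrays. The small number of arrays limits the precision.

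Melanocytes are neural crest derived cells that build melanin inside melanosomes, organelles related to lysosomes. In the furred trunk skin of mice most of them sit in hair follicles, where melanin is made during the growth phase of the hair and passed to the cells of the hair shaft. SOX10 and MITF are the transcription factors that set up this lineage, and MITF in turn binds E-box sequences near the genes of the pigment enzymes and melanosome proteins.

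Levels are the deposited log2 values. A background gauge of 3.16 was used, the 95th percentile of mean level over 1390 genes of olfactory or vomeronasal receptors, which skin hardly expresses. All 9 measured genes were above the gauge on both arrays. Differences are log2, ZAG minus control. Between probes of a same gene, in 800 genes with several probes, the SD of that difference was 0.254, a scale for probe error that says nothing of variation between mice. Differences over the 13593 genes with a mean level at or above the gauge had a median of 0.02 and an SD of 0.345.

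Differences in the pigment genes were small and lay on both sides of 0. Of the 9 measured genes, 6 were higher and 3 lower in the ZAG array, beside 52.4% higher and 47.5% lower among all genes above the gauge, and over so few genes that count is not read as a shift of the set. Their median difference was 0.25, and differences ran from -0.24 in Oca2 to 0.80 in Mlana. Mlana alone was at least 1.5-fold higher, a size that 2.51% of all genes reached, and 0 were at least 1.5-fold lower (4.72% of all genes). At 2-fold the pigment genes numbered 0 in either direction, beside 0.257% of all genes higher and 1.02% lower. Higher differences larger than the probe SD were seen in 4 genes (Mlana, Slc45a2, Tyrp1 and Dct), and the other 5 differed by less than it. A difference past the probe SD was common: 18.5% of all genes above the gauge were higher and 18.8% lower by more than it. In whole skin, a change in the number of melanocytes and a change in RNA per melanocyte cannot be told apart.

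**Figure D1:**
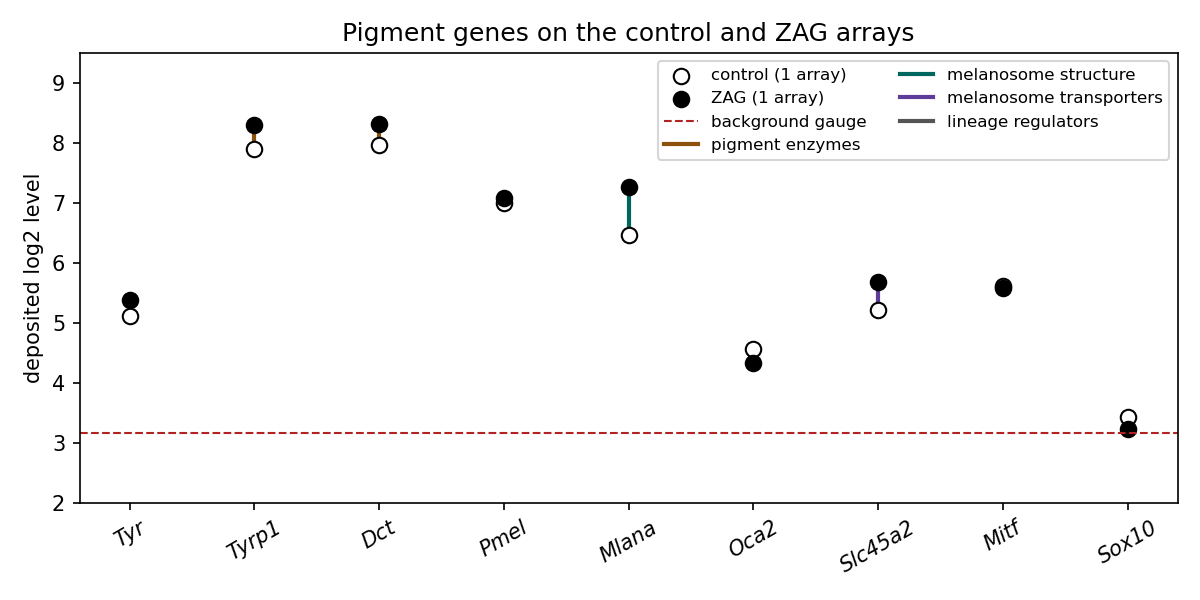
Deposited log2 level (vertical axis) of the 9 measured pigment genes, with an open circle for the control array, a filled circle for the ZAG array and a line coloured by role between them. The dashed line is the background gauge at 3.16. Mlana has the longest line (6.47 to 7.27), the circles of Mitf overlap, and Sox10 lies just above the gauge. Levels of different probes are not comparable, so only the 2 circles of a gene are.

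The pigment enzymes were all higher with ZAG and by similar amounts, Tyr by slightly less than the probe SD. Tyr encodes tyrosinase, the rate-limiting enzyme that oxidises tyrosine towards melanin, and its level was 5.12 in control and 5.38 with ZAG (1.19-fold, a difference of 0.25). Tyrp1, whose product stabilises tyrosinase and acts late in the making of brown-black eumelanin, was at 7.90 and 8.30 (1.32-fold, difference 0.40). Dct encodes dopachrome tautomerase, which converts an intermediate of the eumelanin branch, and was at 7.97 and 8.31 (1.26-fold, difference 0.34). The enzyme with the smallest difference and the one with the largest were 0.15 apart, less than the probe SD, so these data do not order the enzymes. A difference at least as high as that of Tyrp1 was found in 7.81% of genes above the gauge, as that of Dct in 11.6% and as that of Tyr in 18.6%.

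Start-site sequences of RefSeq (build GRCm38.p6, 250 bases before to 50 after an annotated start) were at hand for 6 of the 10 genes: Tyr, Tyrp1, Dct, Oca2, Slc24a5 and Mitf. They are shown because MITF recognises the E-box hexamer CATGTG and its relative CACGTG, and because the 3 enzyme genes lay on the same side of 0. CATGTG, searched on both strands, was present in 5 of the 8 windows of these genes, and in 14.2% of all 32851 windows of that length. By gene, that is 5 of the 6. It was not found in the 3 Mitf windows. CACGTG, which reads the same on both strands and has a C in place of the first T of CATGTG, was in 0 of the 8 windows of these genes and in 7.15% of all windows. Each line gives the hexamer in capitals with 12 bases on either side, 5′ to 3′ along the gene's own strand, so a site on the opposite strand reads CACATG.
Tyr, chr7:87493516-87493545, minus strand, 21 bases before the start: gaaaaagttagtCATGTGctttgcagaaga
Tyrp1, chr4:80834155-80834184, plus strand, 46 bases before the start: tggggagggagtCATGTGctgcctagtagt
Dct, chr14:118052379-118052408, minus strand, 150 bases before the start: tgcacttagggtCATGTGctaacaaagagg
Dct, chr14:118052461-118052490, minus strand, 232 bases before the start: gcttggctgggaCACATGagcccaataaag
Oca2, chr7:56239561-56239590, plus strand, 186 bases before the start: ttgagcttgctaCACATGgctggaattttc
Slc24a5, chr2:125068102-125068131, plus strand, 13 bases before the start: aaggagactgctCACATGattcagcataag

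The enzyme genes shared a longer run around the hexamer. The 9 bases TCATGTGCT, a string searched after these sequences had been seen, stood in the windows of Tyr, Tyrp1 and Dct and in 0.408% of all windows. It contains CATGTG, so its matches are among those above. In the lines above a G also precedes it in Tyr, Tyrp1 and Dct, and the share of all windows was taken without that G. The 250 bases before the starts of Tyr (chr7:87493513-87493762, minus strand) and Dct (chr14:118052247-118052496, minus strand) show how differently placed the same run is, with CATGTG and CACATG in capitals.
Tyr: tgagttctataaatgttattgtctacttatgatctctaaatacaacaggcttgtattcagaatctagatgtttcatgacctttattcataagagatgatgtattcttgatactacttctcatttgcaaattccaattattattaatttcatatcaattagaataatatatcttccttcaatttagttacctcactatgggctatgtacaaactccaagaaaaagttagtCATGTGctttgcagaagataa
Dct: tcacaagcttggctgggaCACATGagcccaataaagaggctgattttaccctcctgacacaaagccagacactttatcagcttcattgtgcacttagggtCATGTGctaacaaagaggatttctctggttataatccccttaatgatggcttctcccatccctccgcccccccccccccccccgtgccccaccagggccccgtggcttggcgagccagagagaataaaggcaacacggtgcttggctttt

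In Tyr the run ends close to the start, after a stretch rich in A and T, while in Dct it lies further upstream and a second hexamer on the opposite strand stands beyond it. RefSeq's gene span of Tyrp1 begins upstream of the start used here, so the Tyrp1 hexamer also lies inside the annotated gene. A match describes the letters of the reference, since no binding was measured here. The DNA of the NC/Nga mice was not read, so whether they carry the same letters at these sites is not known here. Oca2, which also has the hexamer, had a difference on the other side of 0 from the enzymes. Whether the hexamer has a part in any of these differences was not tested.

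The genes of melanosome structure were both higher, by unlike amounts. Mlana encodes Melan-A (MART-1), a small membrane protein that binds PMEL and takes part in melanosome maturation. Its level was 6.47 in control and 7.27 with ZAG, which is 1.74-fold and the largest difference in the set. Above the gauge 106 genes (0.78%) were as high or higher, and 21 of the 1923 genes within 0.5 of its mean level. Mlana is the most extreme gene of a set chosen with earlier results of these data known, so this rank is a description and no test. Pmel, which encodes the protein that forms the fibrils on which melanin is laid down, was at 7.00 and 7.09 (1.06-fold, difference 0.09). Pmel thus differed by less than the probe SD, and the differences of Mlana and Pmel were 0.72 apart. No replicate is at hand to show whether that gap would recur.

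The melanosome transporters lay on both sides of 0. Slc45a2, which encodes a membrane transporter that keeps melanosome pH suited to tyrosinase, was at 5.22 in control and 5.68 with ZAG (1.38-fold, difference 0.46). A difference that high or higher was found in 5.15% of genes above the gauge. Oca2, which encodes a melanosomal chloride channel, was at 4.57 and 4.33, 1.18-fold lower with ZAG (difference -0.24, within the probe SD), and 20.1% of genes were as low or lower. The differences of Slc45a2 and Oca2 were 0.70 apart. Slc24a5, which encodes a potassium-dependent sodium and calcium exchanger of pigment cells, has no value of its own. Of the probes that list both Slc24a5 and Myef2, one was at 5.43 in control and 5.71 with ZAG, and the other was under the gauge on both arrays (2.85 and 2.74).

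The lineage regulators were level or slightly lower in the ZAG array. Mitf, the gene of the master regulator of melanocytes, was at 5.62 in control and 5.59 with ZAG (1.02-fold lower, difference -0.03), close to the middle of all genes. Sox10, the gene of the neural crest factor that acts upstream of Mitf, was at 3.44 and 3.24 (1.15-fold lower, difference -0.20). Both differences were smaller than the probe SD, and the ZAG level of Sox10 was 0.07 above the gauge. Other skin cells also express these regulators. Both lay below the median of the set, so leaving them out could only raise it, and over the remaining 7 genes it was 0.34. By role, the median difference was 0.34 for the enzymes, 0.44 for melanosome structure, 0.11 for the transporters and -0.11 for the regulators, each over 2 or 3 genes.

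**Figure D2:**
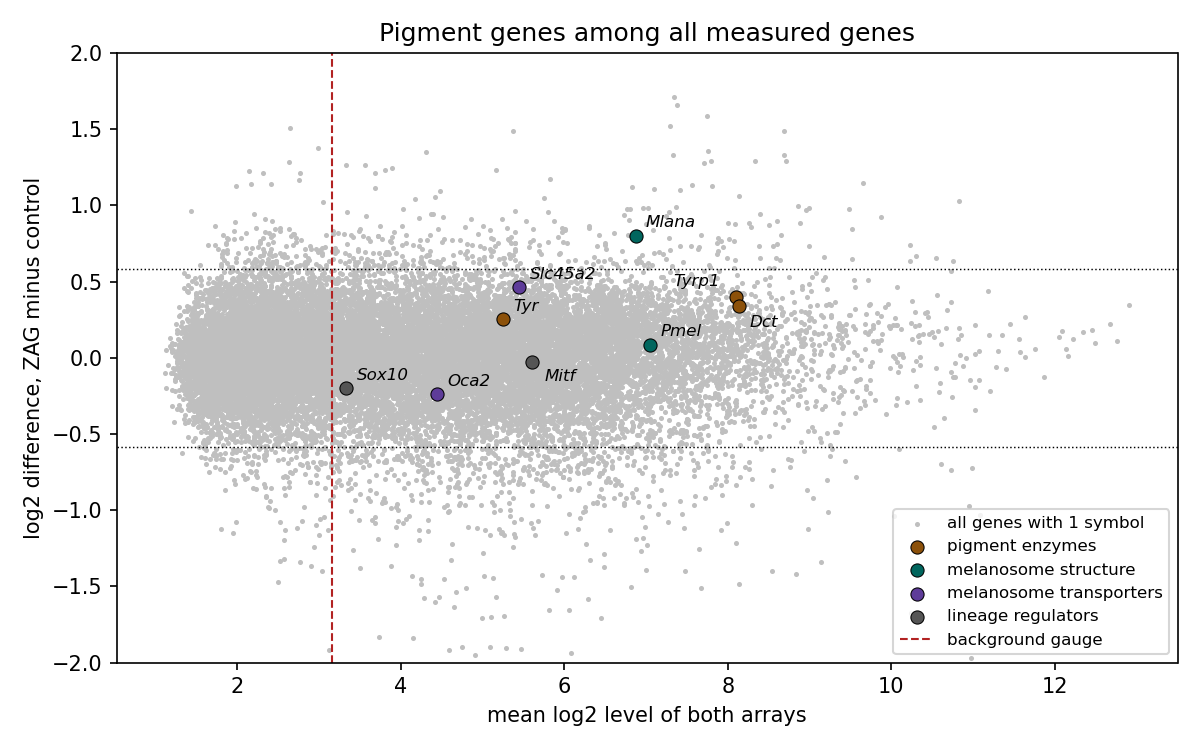
Log2 difference, ZAG minus control (vertical axis), against the mean log2 level of both arrays (horizontal axis) for all genes with 1 symbol in grey and the pigment genes in colour by role. Dotted lines mark 1.5-fold, the dashed line the background gauge, and 23 genes beyond a difference of 2 in size are not drawn. Mlana is the only coloured point outside the dotted lines, and Mitf, Oca2 and Sox10 lie below 0.

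Other genes of the pigment cell gave a mixed picture. Gpr143 and Trpm1, a melanosomal receptor and a cation channel used here as melanocyte markers beside the set, had differences of 0.12 (3.52 to 3.63) and 0.43 (3.11 to 3.54). Trpm1 was under the gauge in control, so its difference is at least 1.30-fold. With them, and without Mitf and Sox10, which were lower, the list of melanocyte markers had 8 higher and 1 lower of 9 measured. Among all genes above the gauge 52.4% were higher. The list had a median of 0.34, and levels from 3.11 to 7.97 in control and from 3.54 to 8.31 with ZAG. All of these markers but Trpm1 were above the gauge on both arrays. Apart from Gpr143 and Trpm1 they are genes of the set itself, so the list is no independent check of the set's label.

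Melanosome biogenesis genes, which build and fill the organelle, were centred near the bulk of genes. Of 23 measured, 14 were higher and 9 lower, with a median of 0.12 and a mean of 0.00. Only Tpcn2, the gene of an endolysosomal cation channel linked to pigmentation, differed by 1.5-fold or more, at 5.24 in control and 4.44 with ZAG (1.74-fold lower). The melanosome transport list, which carries the organelle along actin and towards keratinocytes, had 4 higher and 3 lower of 7, a median of 0.00, and 2 members under the gauge. Its core genes differed little: Rab27a by -0.09, Mlph (melanophilin) by -0.17 and the myosin gene Myo5a by 0.07. Sytl2, a synaptotagmin-like gene of the RAB27 pathway, was 1.63-fold higher (5.34 to 6.04).

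Receptors and ligands that act on melanocytes lay on both sides of 0. Kit, the receptor tyrosine kinase that melanoblasts need, was at 6.49 and 6.00 (1.41-fold lower), and its ligand gene Kitl at 5.54 and 5.68 (1.10-fold higher). Mc1r, the melanocortin receptor that favours eumelanin, was at 4.19 and 4.09, and Pomc, the gene of its ligand's precursor, was under the gauge on both arrays (2.50 and 2.88). Ednrb, the endothelin receptor of melanoblasts, was at 8.04 and 8.01 and its ligand gene Edn3 at 4.56 and 4.77. Asip, the agouti antagonist of MC1R, has no value here.

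The lineage receptor and factor list had 6 higher and 10 lower of 16 measured, with a median of -0.04. It held no gene past 1.5-fold, and Lef1 (0.32), Tfeb (0.17), Kit (-0.49) and Tfap2a (-0.42) had its largest differences each way. Of the ligands, 5 were higher and 3 lower of 8, with a median of 0.17 and a mean of -0.05. Without Pomc, which was under the gauge, 4 of 7 were higher and the median was 0.14. Nrg1, the gene of neuregulin-1, a ligand of ERBB receptors, was at 5.65 and 4.37 (2.43-fold lower), and Edn1, the gene of endothelin-1, at 4.74 and 5.45 (1.64-fold higher).

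Among other melanocyte-enriched genes, 10 were higher and 5 lower of 15, with a median of 0.11. Of these, 3 (Abcb5, Syt4 and Tbx2) were under the gauge on both arrays, and of the 12 above it 8 were higher, with a median of 0.08. Ptgds, the gene of a prostaglandin D synthase, was 1.55-fold higher, and Gsta4, a glutathione transferase gene, 1.95-fold lower. Neither is made by melanocytes alone.

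Markers of other cell types also differed between the arrays. The counts of these lists, and of those above, stand beside 52.4% higher and 47.5% lower among all genes above the gauge. Hair shaft and inner root sheath genes, expressed in the follicles that house most pigment cells, were higher in 17 of 17 measured, with a median of 0.53 and differences from 0.32 to 0.98. Their levels ran from 5.07 to 10.96 in control and from 5.41 to 11.40 with ZAG, the sum of linear levels was 1.47 times as high in the ZAG array, and none was under the gauge. Here and in the lists below such a sum is weighted to the brightest probes and is no average over the markers. The hair keratin genes Krt31 (0.81) and Krt83 (0.74) and the root sheath keratin genes Krt72 (0.98) and Krt28 (0.97) led the list. Their part in the higher pigment gene values was not tested.

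Schwann cell genes bear on Sox10, which glia express as well. Of 7 measured, 1 was higher and 6 lower, with a median of -0.29 and a sum of linear levels 0.849 times that of control. Levels ran from 2.46 to 7.48 in control and from 2.17 to 7.18 with ZAG, and S100b and Gap43 were under the gauge on both arrays. The median of -0.29 is the value of S100b. Without S100b and Gap43, 1 of the remaining 5 was higher and the median was -0.21. Cdh19, a cadherin gene of Schwann cell precursors, was at 3.75 and 3.18, and Mbp, the myelin basic protein gene, at 4.18 and 4.33. The part of these cells in the Sox10 value was not tested.

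Mast cells and macrophages bear on Mitf and Kit. Mast cell genes were lower in 8 of 8, beside 47.5% of all genes above the gauge. Kit is itself in this list, so its value is part of that count and of the median of -0.64. Levels ran from 4.57 to 9.57 in control and from 3.16 to 8.93 with ZAG, with a sum of linear levels 0.630 times that of control. The tryptase gene Tpsb2 had a difference of -0.95, and Hdc, which encodes histidine decarboxylase, was at least 4.90-fold lower. Macrophage genes were lower in 6 of 8, with a median of -0.66, levels from 5.27 to 8.28 in control and from 4.84 to 8.02 with ZAG, and a sum of linear levels 0.706 times that of control. Gpnmb, a macrophage gene that melanocytes also express, was one of the 2 that were higher (7.82 to 8.02). The part of these cells in the values of Mitf and Kit was not tested. Keratinocyte genes had a median of -0.13 over 3 measured, with Krt14 at 11.35 and 10.62, Krt1 at 11.93 and 11.80 and Krt10 at 12.15 and 12.16.

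**Figure D3:**
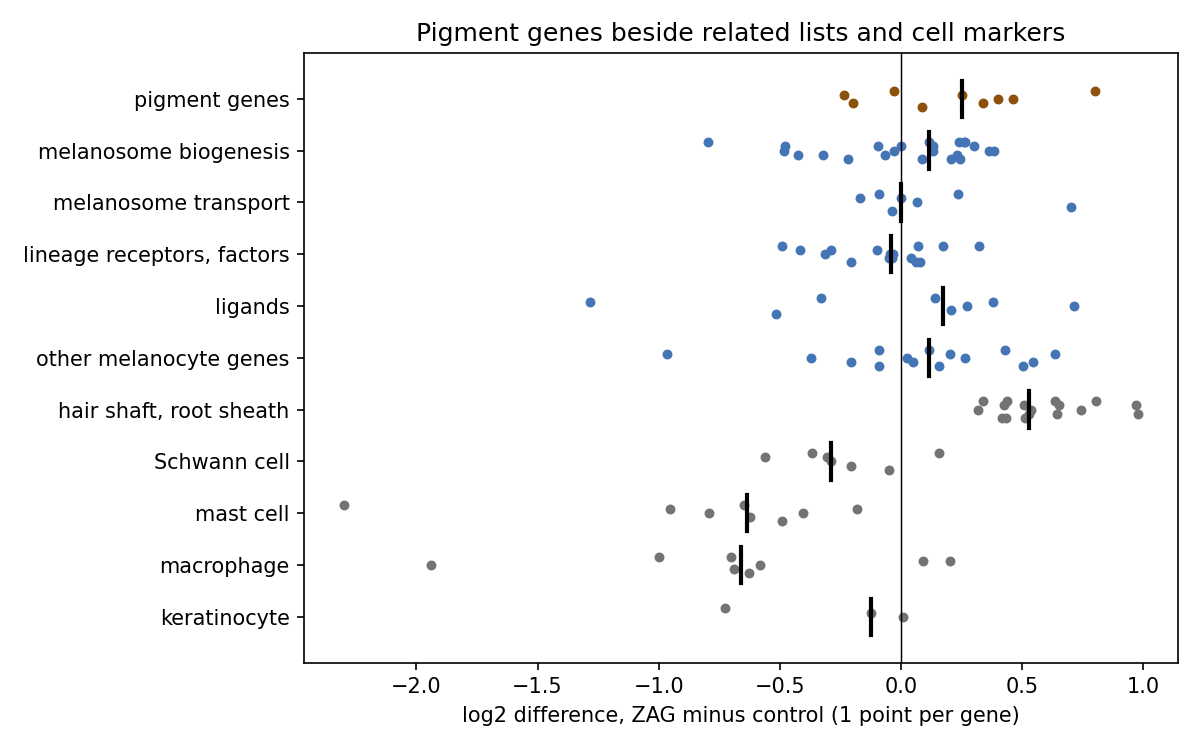
Log2 difference, ZAG minus control (horizontal axis), with 1 point per gene and a black bar at the median of each list. The pigment genes have a median of 0.25, between the hair shaft and root sheath genes (0.53, all above 0) and the mast cell (-0.64) and macrophage (-0.66) genes.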

How the data were processed

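RNA from dorsal skin was labelled with biotin for Affymetrix arrays, per the labels' protocols. The deposited values are log2 expression; that scale was inferred from their range, and the authors' background correction, normalization and software are not stated in the sources used here. The deposited columns had medians of 3.33 (control) and 3.36 (ZAG). By the platform annotation 23521 of 33793 probes had 1 gene symbol, 1814 had several and 8458 had none; only the first kind was used, and several probes of a gene were averaged. The 9 measured genes matched RefSeq by gene identifier and symbol. Where a gene was under the background gauge on 1 array, the gauge took its place and the fold is a lower bound; under it on both, no fold is given. With 1 array a group no test was run. Fold thresholds were 1.5 and 2. The gene lists were written from general knowledge, and named genes were all 10 members, the receptor-ligand pairs and, from each list, genes past 1.5-fold or those with the largest differences; for cell type markers only examples of these are named. The members and lists were chosen with earlier results of these data known. Scaling steps were tested on simulated data. Alternatives were median centring, quantile normalization, loess (span 0.3), the brightest probe, probes with several symbols, other gauges and subsets of the members. Calculations used pandas 2.3.3 and numpy 2.4.6 in Python 3.11.15, loess came from statsmodels 0.14.6, and plots were drawn with matplotlib 3.10.9.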

Additional observations from a re-analysis of the deposited data

Results flagged for a closer look

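Probes with more than 1 gene symbol did not enter the comparison, and 2 of those that list Slc24a5 or a gene of the companion pigmentation lists were above the gauge and higher in the ZAG array than in control. The probe listing Slc24a5 and Myef2 was at 5.71 with ZAG and 5.43 in control (difference 0.28). The probe listing Bloc1s2 and its pseudogene Bloc1s2-ps was at 4.77 with ZAG and 4.16 in control (difference 0.62), while Bloc1s2 on its own probe had a difference of 0.26. In the other direction, the probe listing Zeb2 and Mir5129 was above the gauge at 5.62 in control and 5.33 with ZAG (difference -0.29). Which of the listed genes gave these signals was not tested.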

How the results depend on the processing

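Each of the 9 pigment genes kept its direction under median centring, quantile normalization and loess, and none moved by more than the probe SD of 0.254. That SD served only as a tolerance for the comparison of settings and is no measure of replicate spread. The brightest probe and the probes with several symbols could not alter these genes, which have 1 probe each and no shared one. The median of the set ranged from 0.17, with the shared Slc24a5 probes added, to 0.34, without Mitf and Sox10, which were both lower. The shared Slc24a5 probes were averaged for this, with differences of 0.28 and -0.11. The probe with -0.11 was under the gauge on both arrays, so the 0.17 rests in part on background signal. The count of genes at least 1.5-fold higher was 1 under each scaling and 0 at 2-fold. The near-zero median of the melanosome transport list turned to -0.026 after median centring, -0.0195 after quantile normalization, -0.0190 after loess and -0.038 over members above the gauge. With the 99th percentile of the receptor genes (4.10) as the gauge, 8 of the 9 genes were above it, since Sox10 was not. Signal over background thus limits Sox10 most. No paired analysis was possible because each group has 1 array.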
